A study of Mus musculus with 8 samples.

Results

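A set of 10 genes of the bone morphogenetic protein (BMP) pathway was followed through 8 mouse iPSC clones: the ligand genes *Bmp4* and *Bmp7*, the receptor genes *Bmpr1a*, *Bmpr1b* and *Bmpr2*, the inhibitory Smad genes *Smad6* and *Smad7*, and the target genes *Id1*, *Id2* and *Id3*. They were taken by symbol from a table of RefSeq records, with the record of highest mean count standing for a symbol, and make up 10 of the 21427 symbols in that table. All 10 have a single record and passed the filter on low counts (5 or more reads in no fewer than 4 libraries).

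The 4 TKO clones (35, 37, 47 and 48) came from mouse embryonic fibroblasts (MEFs) that lack functional *Miwi*, *Mili* and *Miwi2*, the genes of the mouse PIWI proteins, and the 4 Ctrl clones (33, 34, 41 and 43) came from control MEFs, given as triple heterozygous in the methods of the study and as littermates with wild type alleles elsewhere. Both genotypes were of mixed strain background, carried an Oct4-GFP reporter, had been reprogrammed with retroviruses for OCT4, SOX2, KLF4 and c-MYC, and were grown in ES cell medium with serum and LIF for fewer than 10 passages. Colonies had been picked onto inactivated MEF feeders, and the methods do not say whether feeders were removed before RNA isolation. Each library is 1 clone, and the embryo behind each clone is not given, so p-values measure the spread between these clones. Each genotype holds 2 clones numbered in the forties and 2 numbered in the thirties. These sets are called clone series, as no label explains the numbering.

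BMPs are secreted dimers that bring type II receptors such as BMPR2 together with type I receptors such as BMPR1A and BMPR1B. The type I receptor then phosphorylates SMAD1, SMAD5 and SMAD9, which enter the nucleus with SMAD4 and switch on target genes. SMAD6 and SMAD7 are themselves induced by the signal and dampen it. The ID proteins lack a DNA-binding domain and hold E proteins off the DNA, and in mouse ES cells grown with LIF the BMP signal from serum is known to act through *Id* genes to keep neural differentiation in check.

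The promoter windows of 4 members are shown as examples of their sequence. *Smad6* and *Bmpr2* had genotypes that do not overlap but did not pass the edgeR test of genotype, and *Id2* and *Id3* were called between the clone series, *Id3* less firmly. Each line is the RefSeq window from 250 bases before to 50 bases after a transcription start in GRCm38.p6, written 5′ to 3′ on the strand of the gene. Capitals mark GGCGCC, the GC-rich element known to bind BMP-activated Smads, or GTCTAGAC, the palindromic Smad-binding element. Both read the same on either strand, and they share no bases here.
Smad6, chr9:64022010-64022309, minus strand: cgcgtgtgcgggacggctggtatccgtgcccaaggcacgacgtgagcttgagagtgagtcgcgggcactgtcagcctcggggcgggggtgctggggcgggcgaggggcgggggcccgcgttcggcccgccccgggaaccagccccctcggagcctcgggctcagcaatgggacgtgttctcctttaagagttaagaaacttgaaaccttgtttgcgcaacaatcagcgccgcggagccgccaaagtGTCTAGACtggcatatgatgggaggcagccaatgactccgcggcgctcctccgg
Bmpr2, chr1:59764029-59764328, plus strand: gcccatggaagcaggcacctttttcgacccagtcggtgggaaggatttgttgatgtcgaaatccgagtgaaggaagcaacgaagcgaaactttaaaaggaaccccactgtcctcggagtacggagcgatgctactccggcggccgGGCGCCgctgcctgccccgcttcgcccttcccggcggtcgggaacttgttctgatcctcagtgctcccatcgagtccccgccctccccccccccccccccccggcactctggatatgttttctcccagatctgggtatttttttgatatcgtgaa
Id2, chr12:25096043-25096342, minus strand: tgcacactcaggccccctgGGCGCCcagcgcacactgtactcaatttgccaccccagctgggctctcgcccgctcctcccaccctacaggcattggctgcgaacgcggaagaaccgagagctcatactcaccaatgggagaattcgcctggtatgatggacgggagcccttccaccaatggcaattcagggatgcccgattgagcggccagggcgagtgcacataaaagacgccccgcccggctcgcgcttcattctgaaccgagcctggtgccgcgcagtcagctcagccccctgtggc
Id3, chr4:136143572-136143871, plus strand: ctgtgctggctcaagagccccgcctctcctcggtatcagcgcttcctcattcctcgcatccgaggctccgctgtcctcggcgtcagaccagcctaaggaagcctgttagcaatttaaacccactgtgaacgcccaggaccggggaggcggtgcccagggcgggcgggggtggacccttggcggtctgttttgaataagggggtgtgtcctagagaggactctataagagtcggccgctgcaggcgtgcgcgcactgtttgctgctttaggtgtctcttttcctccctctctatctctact

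GTCTAGAC began at base -4 from the start of *Smad6*, and 0.213% of the 32851 promoter windows of the same length hold it. GGCGCC began at -105 in *Bmpr2* and at -231 in *Id2*, and was also found at -198 in *Bmpr1a*, against 11.9% of all windows. The windows of *Id3*, *Bmp4* and *Bmpr1b* hold neither. The GC content of those with GGCGCC was 59.3% in *Bmpr2*, 63.3% in *Id2* and 79.3% in *Bmpr1a*, against a median of 52.7% over all windows. High GC was not particular to them. The windows of *Smad6* (66.3%), *Bmp4* and *Id3* lack GGCGCC and were also above that of *Bmpr2*, while those of *Bmpr1b* were at 48.3% to 55.7%. Windows were read for 7 of the 10 members: *Smad6*, *Bmpr2*, *Id2*, *Id3*, *Bmpr1a*, *Bmpr1b* and *Bmp4*. A match describes letters and not a site in use.

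In mm9, the build of the counts, *Bmpr1b* (NM_007560) lies on chromosome 3 from 141500100 to 141832389, *Bmpr1a* (NM_009758) on chromosome 14 from 35223920 to 35316527, and *Bmpr2* (NM_007561) on chromosome 1 from 59821481 to 59927703. *Smad6* (NM_008542) spans chromosome 9 from 63800953 to 63869866, and *Smad7* (NM_001042660) is on chromosome 18. *Id1* (NM_010495) is on chromosome 2 from 152561987 to 152563146, *Id2* (NM_010496) on chromosome 12 from 25778666 to 25780957, and *Id3* (NM_008321) on chromosome 4 from 135699412 to 135701670. *Bmp4* (NM_007554) is on chromosome 14 from 47003195 to 47010344 and *Bmp7* (NM_007557) on chromosome 2 from 172693513 to 172765822. Reads were counted on spliced records, so a value belongs to the transcript as a whole and not to an exon.

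Total counts were 24593995 to 52457455 per TKO library and 8983203 to 24688324 per Ctrl library, and the deepest and the shallowest pairs were both of the thirties series. *Miwi* had 2.41 to 4.53 normalized counts in TKO clones, against 8.13 to 28.8 in Ctrl clones. *Mili* had 3845 to 10084 in TKO clones, against 758 to 1028 in Ctrl clones, and *Miwi2* had 936 to 2862 in TKO clones, against 487 to 769 in Ctrl clones. Counts over whole records do not separate disrupted from intact transcripts, so they do not check the labels. Summed counts of 8 pluripotency markers were 144489 to 157232 in TKO clones and 116777 to 164509 in Ctrl clones. Of the 7 of these markers that were tested, only *Pou5f1* passed, and it was lower in TKO clones (log2(TKO/Ctrl) -0.61, adjusted p = 0.0380 in edgeR). The other tested markers were all above 0, from 0.01 (*Nanog*) to 0.48 (*Dppa5a*). The study had named the product of *Pou5f1* among the reprogramming factors that were not affected. *Esrrb* was at 0 to 3 reads per library. As the assignment of reads that match several records is not stated, no level is read from it. The sum of 11 fibroblast markers was 21230 to 39025 in TKO clones and 24791 to 64081 in Ctrl clones, and 0 of the 11 passed the test of genotype, with *Col1a1* between 5079 and 25806 normalized counts over the 8 clones. In such bulk RNA, fewer cells of a type and less RNA per cell cannot be told apart. The part of feeder cells in these values, and in those of the genes below, was not tested.

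All 10 members were read in every clone, and they are set side by side per kilobase of record because a longer transcript yields more reads. In TKO clones *Id2* led with 762 ± 264 normalized counts per kilobase (SD, n = 4), followed by *Smad7* with 695 ± 74.5, *Id3* with 592 ± 323, *Bmp4* with 506 ± 185 and *Bmpr1a* with 462 ± 15.5. The lower members in TKO clones were *Id1* with 198 ± 86.7, *Bmpr2* with 163 ± 21.7, *Smad6* with 134 ± 14.2, *Bmp7* with 130 ± 66.5 and *Bmpr1b* with 3.29 ± 2.42. In Ctrl clones *Id3* led with 962 ± 270.2 (SD, n = 4), followed by *Smad7* with 692 ± 94.2, *Id2* with 638 ± 235, *Bmpr1a* with 512 ± 55.9 and *Bmp4* with 446 ± 142. Below them in Ctrl clones stood *Id1* with 337 ± 183, *Bmpr2* with 240 ± 42.9, *Smad6* with 88.2 ± 20.3, *Bmp7* with 75.6 ± 29.8 and *Bmpr1b* with 12.9 ± 5.59. Most neighbours in this order overlapped in their ranges. The exceptions were *Bmpr1a* above *Id1* in TKO clones, *Bmpr2* above *Smad6* in Ctrl clones, and *Bmp7* above *Bmpr1b* in both.

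**Figure D1:**
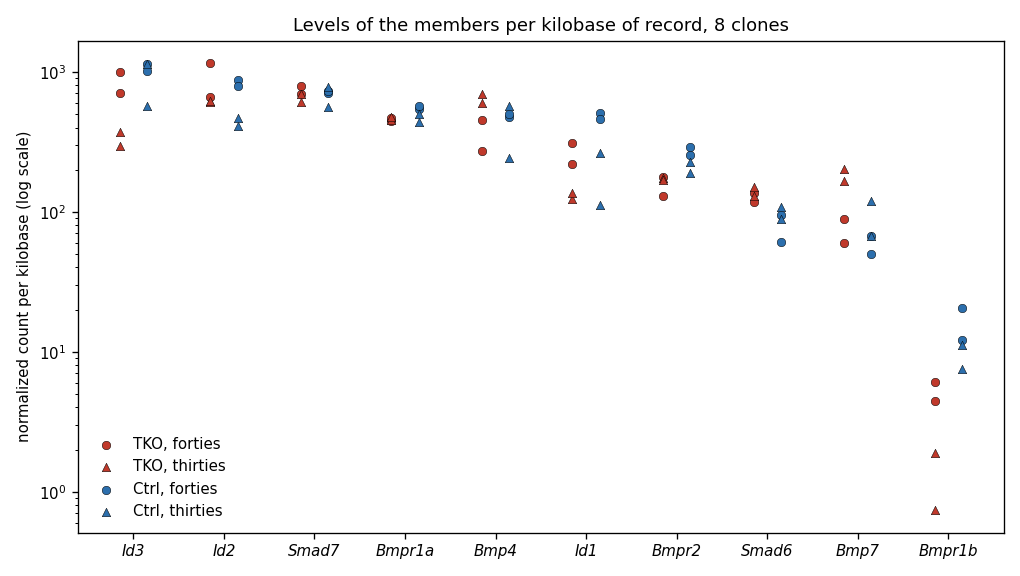
Normalized counts per kilobase of RefSeq record for the 10 members, ordered by their mean, on a log axis, with 1 point per clone, TKO left of Ctrl, circles for forties and triangles for thirties clones. *Bmpr1b* stands below the other 9 members in every clone, with 0.739 to 20.7 per kilobase, while *Smad7* and *Bmpr1a* vary little.

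The question put to the genotype is whether loss of the PIWI proteins changes the expression of a signalling pathway that serves self-renewal. On the edgeR test with genotype alone, none of the members passed an adjusted p of 0.05 (0 of 10, against 0.24% of the 16235 records tested). *Smad6* (higher in TKO clones), *Bmpr1b* and *Bmpr2* (both lower) had an unadjusted p under 0.05, 3 of 10 against 14.8% of all records, and the same 3 members had no overlap between the genotypes (8.33% of all records). DESeq2 called 2 members (*Bmpr1b* and *Bmpr2*) and limma-voom 0. The study, by a vote of several tools and a 2.5-fold threshold, had listed *Bmpr1b* as lower in TKO clones. It also stated that the pathway of BMP, TGF-beta and Smads was not affected. The median log2(TKO/Ctrl) over the 10 members was -0.07, against -0.01 over all records. Once the model also held the clone series, 1 of 10 members passed (*Bmpr1b*, lower in TKO clones), against 5.7% of all records.

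*Bmp4* encodes the ligand best known from ES cells, and its level varied within both genotypes more than between them. It had 1202, 1388, 899 and 545 normalized counts in TKO 35, 37, 47 and 48, against 1130, 481, 946 and 1002 in Ctrl 33, 34, 41 and 43. The ranges overlap throughout, and log2(TKO/Ctrl) was 0.18 ± 0.31 (SE, n = 4 each, adjusted p = 0.800 in edgeR). *Bmp7*, which encodes another ligand of the same receptors, had 402, 332, 176 and 119 normalized counts in TKO 35, 37, 47 and 48, against 236, 132, 134 and 98.8 in Ctrl 33, 34, 41 and 43. The TKO clones of the thirties were above the Ctrl clones, and those of the forties lay among them. The log2(TKO/Ctrl) of *Bmp7* was 0.80 ± 0.40 (SE, adjusted p = 0.381), and 0.68 ± 0.24 with the series in the model (adjusted p = 0.119, 0.0476 in DESeq2).

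*Bmpr1b*, a type I receptor gene known for its part in cartilage formation, had the largest change among the members. Its normalized counts were 3.96, 10.1, 24.0 and 32.5 in TKO 35, 37, 47 and 48, against 59.6, 40.3, 65.4 and 111 in Ctrl 33, 34, 41 and 43. Every TKO clone was below every Ctrl clone, although these values rest on only 7 to 38 reads per TKO library and 22 to 109 reads per Ctrl library. The mean was 17.7 ± 13.0 in TKO clones and 69.1 ± 30.0 in Ctrl clones (SD, n = 4 each, exact two-sided permutation p = 0.0286, the smallest that 4 against 4 clones can give). The log2(TKO/Ctrl) was -2.03 ± 0.57 with genotype alone (adjusted p = 0.207 in edgeR, 0.0233 in DESeq2). With the clone series as a term it was -2.10 ± 0.36 (adjusted p = 0.0168 in edgeR, a 4.29-fold lower level in TKO clones). This call was lost without Ctrl 43 (adjusted p = 0.0661), TKO 37 (0.0664) or TKO 47 (0.0592), and over all settings that kept the gene its adjusted p ran from 5.54e-06 to 0.0664.

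*Bmpr1a*, a type I receptor gene that was above *Bmpr1b* in every clone, differed little between the genotypes. It had 2495, 2626, 2435 and 2578 normalized counts in TKO 35, 37, 47 and 48, against 2405, 2746, 2974 and 3104 in Ctrl 33, 34, 41 and 43. The lowest value belongs to a Ctrl clone, and the 95% interval of log2(TKO/Ctrl) ran from -0.37 to 0.07 around -0.15 (adjusted p = 0.490 in edgeR). *Bmpr2*, a type II receptor gene, had 607, 596, 457 and 621 normalized counts in TKO 35, 37, 47 and 48, against 664, 792, 886 and 1020 in Ctrl 33, 34, 41 and 43. The TKO clones were all below the Ctrl clones (570.0 ± 76.2 in TKO clones and 840 ± 150 in Ctrl clones, SD, n = 4 each, exact two-sided permutation p = 0.0286). The log2(TKO/Ctrl) of *Bmpr2* was -0.56 ± 0.16 (SE, unadjusted p = 0.00621, adjusted p = 0.211 in edgeR, 0.0400 in DESeq2). With the series in the model its log2(TKO/Ctrl) was -0.55 ± 0.15 (adjusted p = 0.0606 in edgeR, 0.0472 in limma-voom and 0.0103 in DESeq2), so the call turns on the tool.

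Of the inhibitory Smad genes, *Smad6* separated the genotypes without overlap and *Smad7* did not. *Smad6*, whose product is known to act mainly on BMP type I receptors and SMAD1, had 450, 384, 349 and 404 normalized counts in TKO 35, 37, 47 and 48, against 322, 264, 282 and 179 in Ctrl 33, 34, 41 and 43. All TKO clones were above all Ctrl clones (397 ± 42.3 in TKO clones and 262 ± 60.3 in Ctrl clones, SD, n = 4 each, exact two-sided permutation p = 0.0286). Its log2(TKO/Ctrl) was 0.61 ± 0.19 with genotype alone (SE, unadjusted p = 0.0112, adjusted p = 0.237 in edgeR). With the series in the model it was 0.61 ± 0.17 (adjusted p = 0.0606 in edgeR, 0.0476 in limma-voom and 0.00752 in DESeq2). *Smad7*, which restrains TGF-beta and activin receptors as well, had 2709, 3062, 3064 and 3516 normalized counts in TKO 35, 37, 47 and 48, against 3443, 2477, 3125 and 3246 in Ctrl 33, 34, 41 and 43. The genotypes were interleaved, and log2(TKO/Ctrl) was 0.01 with a 95% interval from -0.27 to 0.28 (adjusted p = 0.983).

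None of the *Id* genes passed the test of genotype. *Id1* had 112, 125, 201 and 283 normalized counts in TKO 35, 37, 47 and 48, against 241, 102, 466 and 417 in Ctrl 33, 34, 41 and 43. Within the forties both TKO clones were below both Ctrl clones, and in the thirties the Ctrl clones lay on either side (log2(TKO/Ctrl) -0.78 ± 0.45, adjusted p = 0.437). *Id2* had 789, 792, 854 and 1491 normalized counts in TKO 35, 37, 47 and 48, against 526, 602, 1132 and 1028 in Ctrl 33, 34, 41 and 43. TKO 48 was the highest clone and Ctrl 33 the lowest (log2(TKO/Ctrl) 0.25 ± 0.29, adjusted p = 0.704). *Id3* had 356, 286, 679 and 960 normalized counts in TKO 35, 37, 47 and 48, against 1097, 546, 1090 and 977 in Ctrl 33, 34, 41 and 43. Ctrl 33, 41 and 43 were above every TKO clone and Ctrl 34 was not (log2(TKO/Ctrl) -0.70 ± 0.37, adjusted p = 0.402). With the series in the model the adjusted p values in edgeR were 0.117 for *Id1*, 0.297 for *Id2* and 0.0898 for *Id3*, and in DESeq2 *Id1* (0.0405) and *Id3* (0.0184) were called lower.

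**Figure D2:**
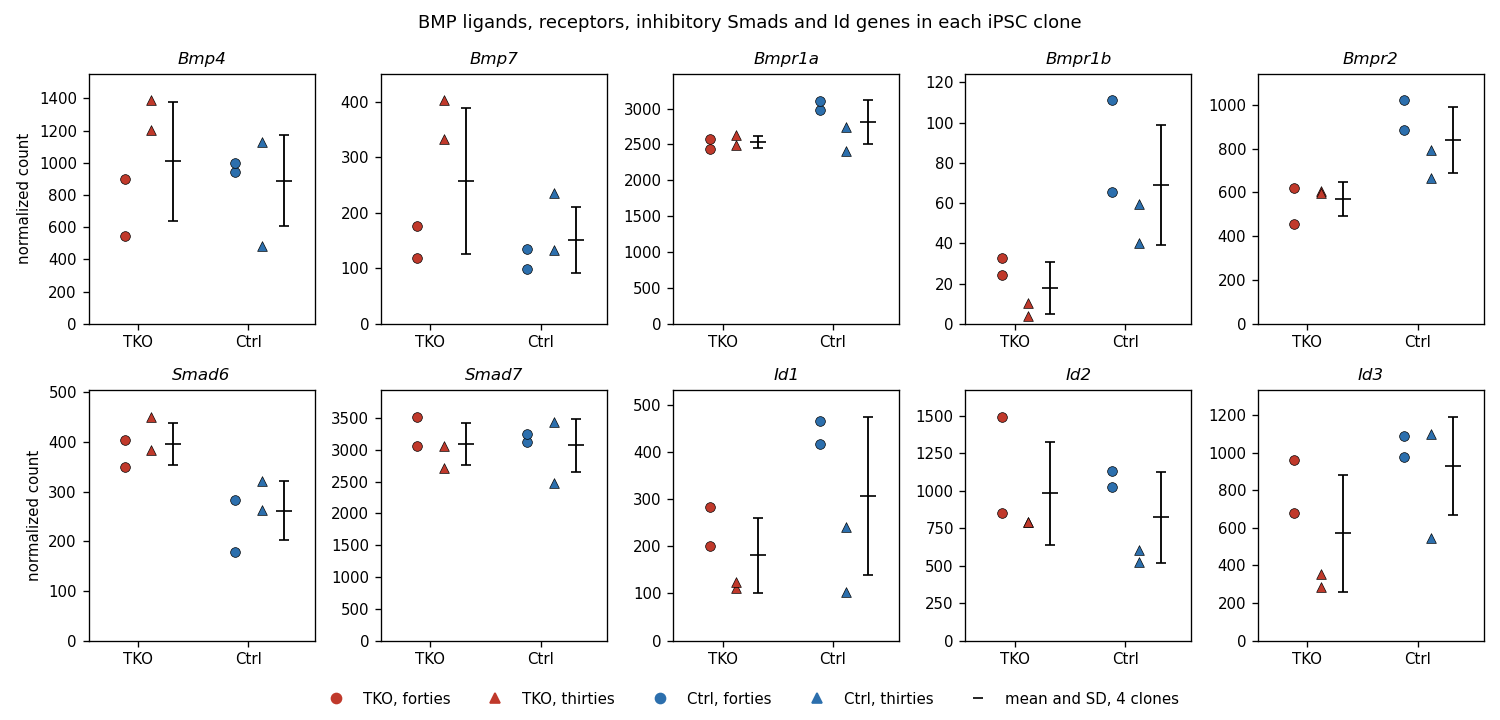
Normalized counts of the 10 members, a panel each with its own axis from 0, with TKO left of Ctrl, 1 point per clone (circles for forties, triangles for thirties) and bars for the mean and SD of 4 clones. *Bmpr1b*, *Bmpr2* and *Smad6* are the panels with no overlap between the genotypes, and in the *Id* panels the circles lie mostly above the triangles.

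The *Id* genes differed between the clone series. In the model with both terms *Id1*, *Id2* and *Id3* were all higher in the forties than in the thirties clones, *Bmpr1b* was also higher and *Bmp7* was lower. These are 5 of 10 members, against 19.4% of all records, of which 9.84% were higher and 9.56% lower. *Id1* averaged 342 ± 122 normalized counts in the forties and 145 ± 64.7 in the thirties (SD, n = 4 each, 2 clones of each genotype), and log2(forties/thirties) was 1.21 ± 0.24 (SE, adjusted p = 0.00997 in edgeR). *Id2* averaged 1126 ± 269 in the forties and 677 ± 135 in the thirties (log2 0.75 ± 0.17, adjusted p = 0.0151). It was the only member with no overlap between the series, its lowest forties clone standing at 854 and its highest thirties clone at 792, against 16.1% of all records (exact two-sided permutation p = 0.0286). *Id3* averaged 927 ± 175 in the forties and 571 ± 367 in the thirties (log2 0.85 ± 0.26, adjusted p = 0.0479).

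*Bmpr1b* averaged 58.3 ± 39.5 normalized counts in the forties and 28.5 ± 26.1 in the thirties (log2(forties/thirties) 1.35 ± 0.36, adjusted p = 0.0285 in edgeR). *Bmp7* averaged 132 ± 32.9 in the forties and 276 ± 117 in the thirties (log2 -0.998 ± 0.24, adjusted p = 0.0206). *Bmp7* thus had the opposite sign to the *Id* genes, but the ligand genes did not move together. *Bmp4* was not called (log2 -0.29, adjusted p = 0.533 in edgeR). Among ligand genes outside the members, *Bmp2* was called higher (1.25) and *Bmp6* lower (-0.98) in the forties. The calls of *Id1* and *Id2* held without any 1 clone, with adjusted p of at most 0.0384 and 0.0469. The call of *Id3* was lost whichever clone other than Ctrl 33 was left out, with an adjusted p from 0.0548 (Ctrl 43) to 0.156 (TKO 37). That of *Bmp7* was lost without Ctrl 43 (0.0543), TKO 35 (0.0731), TKO 37 (0.0583) or TKO 47 (0.0548). That of *Bmpr1b* was lost without Ctrl 43 (0.0830), TKO 35 (0.0725), TKO 37 (0.0772), TKO 47 (0.0626) or TKO 48 (0.0678), and also with all libraries thinned to the smallest total (0.106).

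**Figure D3:**
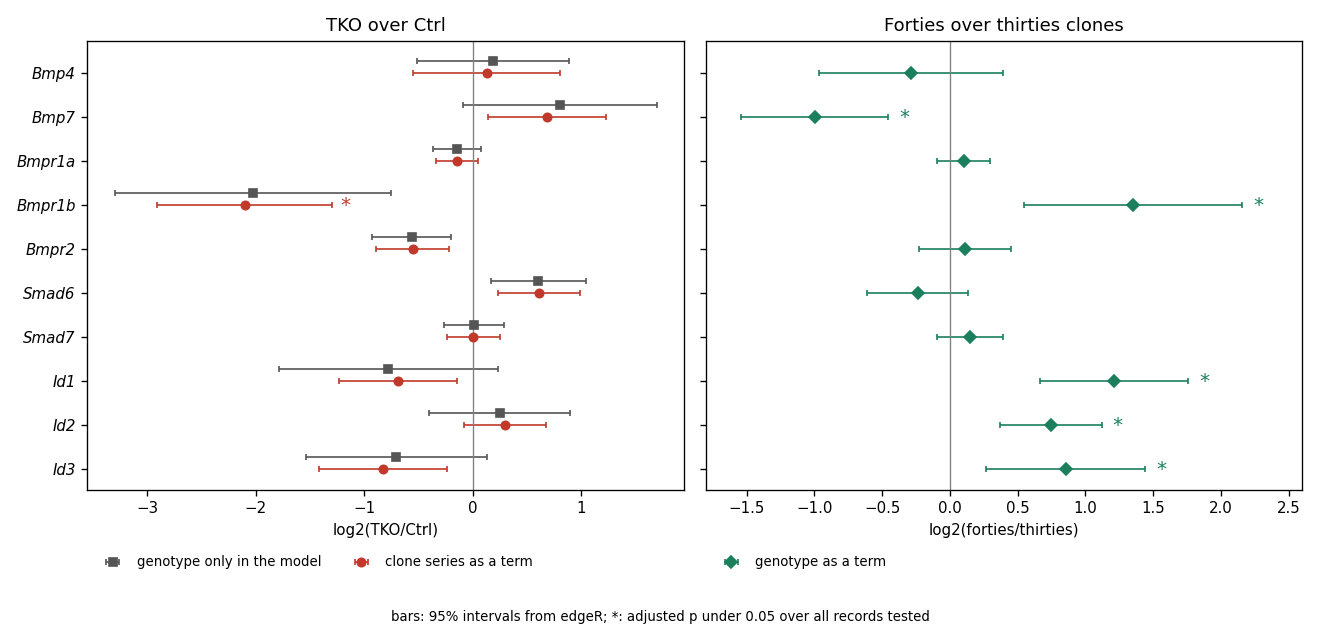
Fitted log2 changes of the 10 members with 95% intervals from edgeR: left, TKO over Ctrl with genotype alone (grey squares) and with the clone series as a term (red circles), and right, forties over thirties clones (green diamonds). Stars mark an adjusted p under 0.05 over all records, which are *Bmpr1b* on the left with the series as a term, and *Bmp7*, *Bmpr1b*, *Id1*, *Id2* and *Id3* on the right.

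Some other marker genes differed between the series too, where 9.84% of all records were higher and 9.56% lower in the forties. Of 4 tested mesoderm markers, *T*, *Mixl1* and *Kdr* were higher in the forties (log2(forties/thirties) 3.25, 2.76 and 0.96), and the sum of the 5 listed was 174 to 375 normalized counts in forties clones and 73.1 to 89.3 in thirties clones, with *Mesp1* at 0 to 6 reads. Of 6 primitive endoderm markers, *Sox17*, *Pdgfra* and *Sox7* were higher in the forties (log2 1.85, 1.93 and 0.74), and the sum was 294 to 595 in forties clones and 247 to 325 in thirties clones. Of 11 fibroblast markers *Prrx1* was higher (log2 1.38), with sums of 24791 to 39025 in forties clones and 21230 to 64081 in thirties clones. Of 7 tested pluripotency markers 0 differed. Among the mesoderm, endoderm and fibroblast markers that were tested and not called, *Eomes* (log2 -0.35), *Gata4* (-0.05), *Col1a1* (-1.01) and *Col1a2* (-0.24) were below 0. The rest of these were above 0. The part of these markers in the *Id* and *Bmpr1b* values was not tested.

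Within a series the genotypes were compared on 2 clones each, and a fit without 1 of them assumes that the clone left varies like the other groups. Among forties clones *Bmpr2* was lower in TKO clones in edgeR (log2(TKO/Ctrl) -0.82 ± 0.17, adjusted p = 0.0486), 1 of 10 members against 1.98% of all records. Among thirties clones *Bmpr1b* (-2.73 ± 0.50, adjusted p = 0.0124) and *Id3* (-1.34 ± 0.30, adjusted p = 0.0241) were lower in TKO clones, 2 of 10 against 11.9% of all records. The *Bmpr2* call was lost without TKO 35 (adjusted p = 0.139), TKO 37 (0.138), TKO 47 (0.127), TKO 48 (0.0620), Ctrl 41 (0.220) or Ctrl 43 (0.351), and also with libraries thinned to the smallest total (0.0845). The *Bmpr1b* call was lost without TKO 35 (0.118) or TKO 37 (0.0585), and the *Id3* call without TKO 35 (0.136), TKO 37 (0.174), Ctrl 41 (0.0526) or Ctrl 43 (0.0527). The direction was the same in both series for 8 of 10 members. The exceptions were *Smad7*, near 0 in both (0.05 in the forties and -0.03 in the thirties), and *Bmp4*, at -0.43 ± 0.34 in the forties and 0.71 ± 0.35 in the thirties.

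The test of the difference between the series called no member at an adjusted p of 0.05 (0 of 10 in edgeR, against 1.3% of all records). Only *Bmp4* and *Id3* had an unadjusted p under 0.05, 2 of 10 against 18.7% of all records, and DESeq2 and limma-voom called 0. The change of *Bmp4* in the forties minus that in the thirties was -1.15 ± 0.49 on the log2 scale (adjusted p = 0.248), and that of *Id3* was 1.00 ± 0.41 (adjusted p = 0.238). Without Ctrl 33 the *Bmp4* difference was -1.87 (adjusted p = 0.0182), and *Id3* was called without Ctrl 34. Each of these fits leaves 1 Ctrl clone in the thirties, which is assumed to vary like the other groups.

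Ratios between members within a library do not depend on the scaling of that library. Of 7 ratios per kilobase, 4 had no overlap between the genotypes, and they are given as a description with no test, since their members had already been seen. The numerators *Bmpr1b*, *Bmpr2* and *Smad6* had no overlap by themselves, and the share over ratios of other records was not computed. The *Bmpr1b*/*Bmpr1a* ratio was 0.00162 to 0.0129 in TKO clones and 0.0150 to 0.0366 in Ctrl clones. The *Bmpr2*/*Bmpr1a* ratio, of a type II over a type I receptor gene, was 0.293 to 0.380 in TKO clones and 0.431 to 0.513 in Ctrl clones. Both receptor ratios were thus lower in TKO clones, with *Bmpr1a* as the common denominator. The *Smad6*/*Smad7* ratio was 0.170 to 0.248 in TKO clones and 0.0826 to 0.159 in Ctrl clones. The *Id3*/*Id2* ratio was 0.483 to 1.06 in TKO clones and 1.21 to 2.79 in Ctrl clones, so *Id3* exceeded *Id2* per kilobase in all Ctrl clones but in only 1 of the TKO clones, TKO 47. The *Id1*/*Id2*, *Id1*/*Id3* and *Bmp7*/*Bmp4* ratios overlapped.

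**Figure D4:**
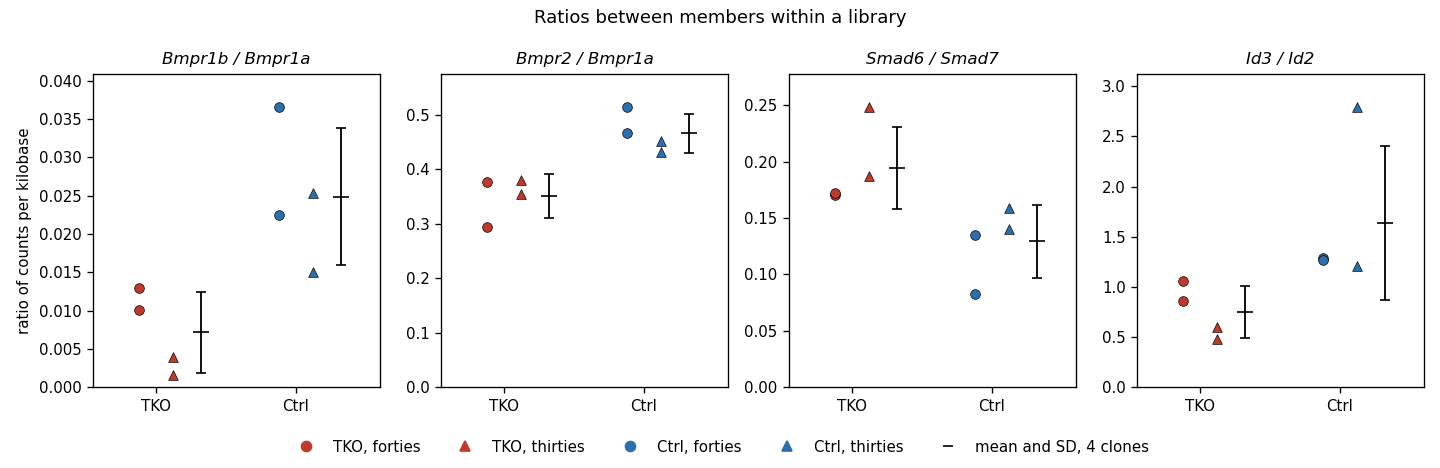
Ratios of counts per kilobase within each library for the 4 pairs with no overlap, TKO left of Ctrl, 1 point per clone (circles for forties, triangles for thirties) with the mean and SD of 4 clones. *Bmpr1b*/*Bmpr1a*, *Bmpr2*/*Bmpr1a* and *Id3*/*Id2* are lower in all TKO clones and *Smad6*/*Smad7* is higher in all TKO clones.

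A wider list of 53 other genes of the pathway was read in the same fits, of which 40 passed the filter. With genotype alone 0 were called (against 0.24% of all records; 3 had an unadjusted p under 0.05, against 14.8% of all records, 1 of them higher in TKO clones, and DESeq2 called *Bmper*), and the median log2(TKO/Ctrl) was -0.08 against -0.01 over all records. The signal-transducing Smads did not pass, with *Smad1* at log2(TKO/Ctrl) -0.08 (446 to 499 normalized counts in TKO clones and 488 to 509 in Ctrl clones) and *Smad4*, the common partner, at 0.08 (1919 to 2308 in TKO clones and 1688 to 2280 in Ctrl clones). The type II receptors shared with activin, *Acvr2a* (-0.32) and *Acvr2b* (-0.01), did not pass, nor did *Smurf2*, a ubiquitin ligase for Smads and receptors (-0.28), *Ski*, a Smad corepressor (-0.14), or *Fkbp1a*, which holds type I receptors inactive (0.0049). Of the ligands with most reads, *Bmp8b* (0.78), *Bmp6* (0.58) and *Bmp8a* (0.03) did not pass, nor did *Bmp2* (-0.94). The co-receptors *Rgmb* (0.04) and *Rgma* (0.02) did not pass either. Among further targets *Zfp423* (-0.37), *Hey1* (0.11) and *Id4* (0.21) did not pass. *Smad5* and *Acvr1* have 3 records each and few reads on any of them, and since the assignment of reads that match several records is not stated, no level is read from them.

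With the series in the model 2 of the 40 passed, against 5.7% of all records, so the list did not stand out. Both encode secreted antagonists and were lower in TKO clones. *Fst* encodes follistatin, which traps activin and some BMPs, and had 101, 111, 375 and 465 normalized counts in TKO 35, 37, 47 and 48, against 409, 291, 688 and 782 in Ctrl 33, 34, 41 and 43. Within each series both TKO clones were below both Ctrl clones (log2(TKO/Ctrl) -1.24, adjusted p = 0.0153 in edgeR). *Bmper*, which encodes a secreted BMP-binding modulator, had 50.9, 58.9, 88.2 and 127 in TKO 35, 37, 47 and 48, against 293, 184, 158 and 164 in Ctrl 33, 34, 41 and 43 (-1.33, adjusted p = 0.0432). *Bmper* was the only one of the 40 with no overlap between the genotypes, against 8.33% of all records.

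The *Fst* call was lost without TKO 35 (0.0708), TKO 37 (0.0742) or TKO 47 (0.0526). The *Bmper* call stood only without TKO 48, its adjusted p being 0.0543 to 0.159 without any of the other 7 clones. Over the 8 tested antagonists of 12 listed, the median log2(TKO/Ctrl) was -0.84 with the series in the model, against -0.01 over all records. This was the lowest median among the groups of the list, the others running from -0.24 (E proteins) to 0.10 (targets), and no group was tested as a set. The other antagonists with most reads, *Grem1* (-1.03, adjusted p = 0.0851), *Nbl1* (-0.66, adjusted p = 0.0808) and *Twsg1* (0.24, adjusted p = 0.174), did not pass. *Grem1* was the one gene of the wider list called for a difference between the series, 1.68 on the log2 scale (adjusted p = 0.0450). In the forties it had 1586 and 2284 normalized counts in TKO clones, against 2188 and 2264 in Ctrl clones, while in the thirties it had 480 and 621 in TKO clones, against 2435 and 1633 in Ctrl clones. That call was lost without TKO 35 (0.238), TKO 37 (0.200), TKO 48 (0.113), Ctrl 41 (0.208) or Ctrl 43 (0.168).

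**Figure D5:**
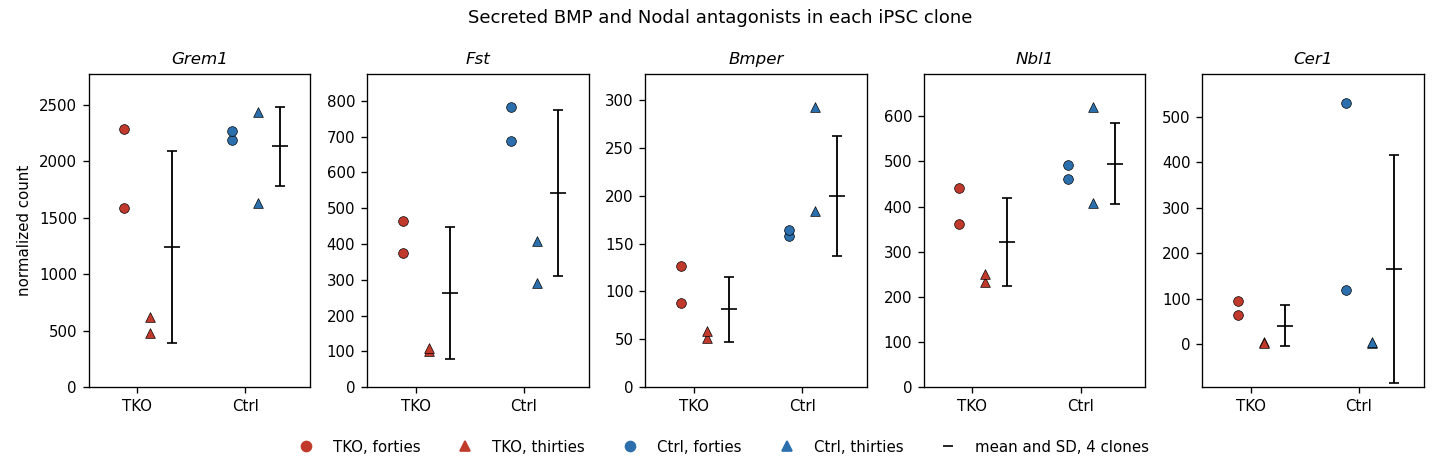
Normalized counts of 5 secreted antagonists, a panel each, TKO left of Ctrl, 1 point per clone (circles for forties, triangles for thirties) with the mean and SD of 4 clones, the SD bars of *Cer1* reaching below 0. *Bmper* has no overlap between the genotypes, and *Fst* and *Cer1* are higher in forties than in thirties clones of the same genotype.

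Between the series, 10 of the 40 genes were called, 8 higher and 2 lower in the forties, against 19.4% of all records, a share too near to that of the list to set it apart. Among them *Cer1*, a secreted Nodal and BMP antagonist, differed most, with 94.2 and 64.1 normalized counts in TKO 47 and 48 and 532 and 119 in Ctrl 41 and 43, against 3.96 and 2.41 in TKO 35 and 37 and 2.71 and 5.76 in Ctrl 33 and 34. The thirties values rest on 1 to 7 reads, and log2(forties/thirties) was 5.22 (adjusted p = 0.00102). The others that were higher in the forties were the ligand gene *Bmp2* (1.25), the endothelial type I receptor gene *Acvrl1* (1.53), the co-receptor gene *Rgma* (1.27), *Fst* (1.54), *Id4* (0.55), *Atoh8* (1.38) and *Tcf12* (0.54), an E protein gene and so a partner of the ID proteins. *Bmp6* (-0.98) and *Dlx3* (-0.98) were lower. The calls of *Cer1*, *Acvrl1*, *Rgma* and *Fst* held without any 1 clone. Those of *Bmp2* (without Ctrl 33, 34 or 41 or TKO 35, 37 or 48, adjusted p from 0.0781 to 0.118), *Bmp6* (without any clone but TKO 48, 0.0659 to 0.107), *Dlx3* (without any 1 TKO clone, 0.0556 to 0.0838), *Atoh8* (without Ctrl 43, TKO 35 or TKO 37, 0.0506 to 0.0618) and *Tcf12* (without TKO 35, 0.0507) did not. Of the *Id* family all 4 members were thus higher in the forties, the *Id4* call being lost without any 1 clone (adjusted p from 0.0514 to 0.0979).

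By the pattern over the 8 clones, the genes most like *Bmpr1b* were *Fam118b* (Pearson r = 0.993 of log2(normalized count + 1)), *Phldb2* (0.982), *Slc39a14* (0.982), *Msrb3* (0.980) and *Adamts6* (0.980), out of 12796 records. Those most like *Id1* were *Cnn2* (0.984), *Il11* (0.983), *Ankrd50* (0.983), *Zfp507* (0.983) and *Lin28a* (0.981). These are the highest of many correlations over 8 libraries that share genotype, series and depth, and they are given as a description with no p.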

How the data were processed

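RNA of 8 iPSC clones was made into Illumina TruSeq libraries and sequenced single-end. The authors aligned the reads to mm9 transcripts (BWA 0.7.5a, from the submitters' processing notes) and deposited whole-number read counts for 27052 RefSeq records, unscaled and unfiltered, beside the record length. The rules for strand and for reads that match several records are not given in the sources used here. Columns were matched to samples by clone number.

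The filter of the study was kept (5 or more reads in 4 or more libraries, 16235 records), and counts were scaled by DESeq median-ratio size factors. Genotype was tested with the quasi-likelihood test of edgeR 4.0.16 (R 4.3.3), with Benjamini-Hochberg adjustment over all records. Standard errors came from the log2 change and F. The same test was run on models that added the clone series or split the clones by genotype and series. Single members were compared by exact two-sided permutation over 70 arrangements. Scripts were tested on simulated data.

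As alternatives, TMM scaling, other filters (none, or 10 or more reads in each library), DESeq2 1.42.0, limma-voom (limma 3.58.1), libraries thinned to the smallest total, counts summed per symbol, and omission of each clone were tried. The study's vote of several tools was not repeated. Members, lists and markers were chosen with earlier results of these data known. Named were all members, wider-list genes called in either genotype model, up to 3 per role with most reads, and the 5 genes most like *Bmpr1b* and *Id1* (mean of at least 20 counts). Genes named for the clone series or its interaction, and *Nbl1*, were named after their values were seen. A gene of the wider list is not reported here and was left out of its counts. Symbols and promoters came from RefSeq (GRCm38.p6) and coordinates from an mm9 annotation.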

Additional observations from a re-analysis of the deposited data

Results flagged for a closer look

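*Bmp4* was flagged because its TKO clones lay on opposite sides of the Ctrl clones in the forties and the thirties. Both TKO clones of the forties (899 and 545 normalized counts) were below both Ctrl clones (946 and 1002). Both TKO clones of the thirties (1202 and 1388) were above both Ctrl clones (1130 and 481). The difference of the log2 changes, forties minus thirties, was -1.15, and it did not pass the test (adjusted p = 0.248 in edgeR). The share of all records with such a pattern was not computed.

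In *Bmpr2* TKO 47, at 457 normalized counts, was far below the other TKO clones, which were at 596 to 621. In *Id2* TKO 48, at 1491, was far above the other TKO clones, which were at 789 to 854. Chance alone marks about 1 in 20 groups of 4 clones in this way, and 20 groups were looked at.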

How the results depend on the processing

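For TKO against Ctrl the count of members called was 0 in edgeR and 2 with DESeq2, and 0 without any 1 clone. With the series in the model it was 1 in edgeR, 4 without a filter, 0 with at least 10 reads in every library (where *Bmpr1b* drops out), 6 with DESeq2, 3 with limma-voom, and 0 to 3 without 1 clone. For forties against thirties it was 5, and 2 to 5 without 1 clone. For the difference between the series it was 0, and 0 to 1 without 1 clone. DESeq2 called 1 gene of the wider list for genotype, against 0 in edgeR. Over all records 39 were called for genotype in edgeR, 513 with DESeq2, and 15 to 86 without 1 clone.

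The sign of a log2(TKO/Ctrl) changed only for members near 0. With 1 clone left out, *Bmp4* ran from -0.021 to 0.39 (below 0 without Ctrl 34 or TKO 37), and from -0.19 to 0.38 with the series in the model. *Smad7* ran from -0.083 to 0.066 (below 0 without Ctrl 34 or TKO 48), and from -0.074 to 0.11 with the series in the model, where thinned libraries gave -0.0022. *Id2* ran from -0.026 (without TKO 48) to 0.44. With thinned libraries the calls of *Bmper* for genotype (adjusted p = 0.0542) and of *Bmp2* (0.0728), *Bmp6* (0.0669) and *Dlx3* (0.0707) for the series were lost, and limma-voom lost that of *Bmp2* (0.0635). The cause was not tested.

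No paired analysis was possible because no clone number occurs in both genotypes. What limits these values is 4 clones per genotype, 2 per genotype and series, few reads of *Bmpr1b*, and library totals that differ with genotype and series.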
